A study of Mus musculus and Macaca nemestrina with 20 samples.

Results

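The receptors for lysophosphatidic acid (LPA) and sphingosine 1-phosphate (S1P), together with the enzyme that makes extracellular LPA, were followed in bulk RNA sequencing of dorsal root ganglia (DRG), where the somata of sensory neurons lie. The 9 genes were taken by symbol: Lpar1, Lpar3, Lpar4, Lpar5, Lpar6, Enpp2, S1pr1, S1pr2 and S1pr3 among 29766 mouse genes, and the same symbols in capitals among 35194 monkey genes. All 9 were found in both species. The mouse groups were 7 libraries labelled ADAM17 KO (4 in batch 1 and 3 in batch 2) and 7 labelled ADAM17 flox (3 in batch 1 and 4 in batch 2). ADAM17 is a membrane protease that sheds growth factors and cytokines from the cell surface. The monkey groups were 3 libraries of DRG labelled as coming from SADBE-treated skin and 3 of DRG labelled as coming from control skin given Vehicle, all of pig-tailed monkeys (Macaca nemestrina). SADBE, squaric acid dibutyl ester, is a contact sensitizer put on the skin to raise contact allergy. The labels name no Cre driver, age, strain or sex, and leave the number of animals per library open. For the monkeys they also do not say whether SADBE and vehicle ganglia came from different animals. P-values therefore measure the spread between libraries, which may be technical. The series title places the work under chronic itch, and the mouse comparison asks how DRG labelled as lacking ADAM17 differ from floxed controls.

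LPA and S1P are signalling lipids that act outside the cell through G protein-coupled receptors. LPA is made outside the cell largely by autotaxin, the product of Enpp2, from lysophosphatidylcholine, while S1P is made inside cells by sphingosine kinases and exported. In the DRG the receptors are spread over neurons, glia and vessels. In mice, Lpar3 and Lpar5 mark the NP1 class of non-peptidergic neurons that also carry Mrgprd, S1pr3 is carried by sensory neurons, S1pr1 is abundant in endothelium, and Lpar1 is found in Schwann cells. Injected LPA and S1P provoke itch or pain behaviour in mice, and autotaxin has been linked to the itch of cholestasis in patients.

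The sequences upstream of Lpar3 and S1pr2 are shown because these 2 genes passed the test in mice. Each run is the 250 bases before the RefSeq transcript start in GRCm38.p6, written 5′ to 3′ on the strand of the gene. The Lpar3 window lies at chr3:146220711-146220960 on the plus strand. The S1pr2 window lies at chr9:20976794-20977043 on the minus strand. Capitals mark a GC box (GGGCGG, on either strand) in Lpar3 and a cyclic AMP response element (TGACGTCA) in S1pr2.
Lpar3: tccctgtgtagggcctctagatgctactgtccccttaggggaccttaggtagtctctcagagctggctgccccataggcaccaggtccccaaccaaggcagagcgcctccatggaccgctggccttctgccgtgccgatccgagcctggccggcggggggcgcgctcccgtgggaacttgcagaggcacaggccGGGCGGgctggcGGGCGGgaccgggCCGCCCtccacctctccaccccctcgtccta
S1pr2: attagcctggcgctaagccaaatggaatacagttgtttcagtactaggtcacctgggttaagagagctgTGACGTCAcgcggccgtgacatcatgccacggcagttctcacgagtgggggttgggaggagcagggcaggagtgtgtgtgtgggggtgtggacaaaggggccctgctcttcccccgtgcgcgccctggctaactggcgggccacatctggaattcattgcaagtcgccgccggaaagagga
The 3 GC boxes of Lpar3 began 56, 44 and 31 bases upstream of the start. A GC box was found in 32.7% of 32851 promoter windows of the same length. The response element of S1pr2 began 181 bases upstream, and 1.55% of the windows held one. These matches are letters in a window, and no binding was measured here. The searched TATA box (TATAAA, 12.4% of windows), CCAAT box (CCAAT, 33.8%), E-box (CACGTG, 6.02%), STAT site (TTCNNNGAA, 7.02%), AP-1 site (TGANTCA, 6.75%) and serum response CArG box (1.47%) were in neither sequence. Both strands were read, and none of the matches in these 2 windows overlapped another.

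Library totals were 12.1 to 14.7 M (1e6) estimated counts for KO and 46.9 to 52.1 M for flox in batch 1, and 27.9 to 30.8 M for KO and 30.9 to 36.0 M for flox in batch 2. Depth and genotype thus move together in batch 1. Monkey totals were 9.02 to 22.4 M for SADBE and 13.7 to 27.1 M for vehicle. Counts are given below as CPM, counts scaled to a library total of 1e6 after TMM scaling, and levels of different genes are compared as TPM, which is scaled for transcript length. Adam17 itself did not separate the groups: it had 16.1 to 34.6 CPM in KO and 17.6 to 33.3 CPM in flox libraries, with a log2 fold change of 0.03 ± 0.18 (SE, edgeR adjusted p = 0.930). A gene total does not show a deleted exon or a deletion in a share of cells, so it checks nothing about the labels. Transcripts of Y-linked genes summed to 155 to 181 CPM in KO libraries 6 and 7, against 4.30 to 12.01 CPM in the other 12 mouse libraries. KO libraries 6 and 7 are of batch 2, so Y-linked transcripts and genotype move together in part in that batch. Every one of 10 sensory neuron markers in mice and 9 in monkeys was above 0 in all libraries.

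Of the 9 genes, 2 passed the test in mice, Lpar3 and S1pr2, and both were lower in KO than in flox DRG. A gene was called where its adjusted p (edgeR quasi-likelihood test with batch in the model, Benjamini-Hochberg over 15654 genes) was under 0.05. The call took 2423 genes, or 15.5% of those tested, with 7.97% higher and 7.51% lower, so a count of 2 of 9 is close to the background and is not a result about the family as a whole. The 9 log2 fold changes had a median of -0.04, with 3 above and 6 below 0, beside a median of -0.01 over all genes. The KO and flox libraries did not overlap in either batch for 1 of the 9, Lpar3, where 5.49% of all genes met that condition with the same direction in both batches. Counts within a bulk sample cannot tell fewer cells of a type from less RNA per cell.

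**Figure D1:**
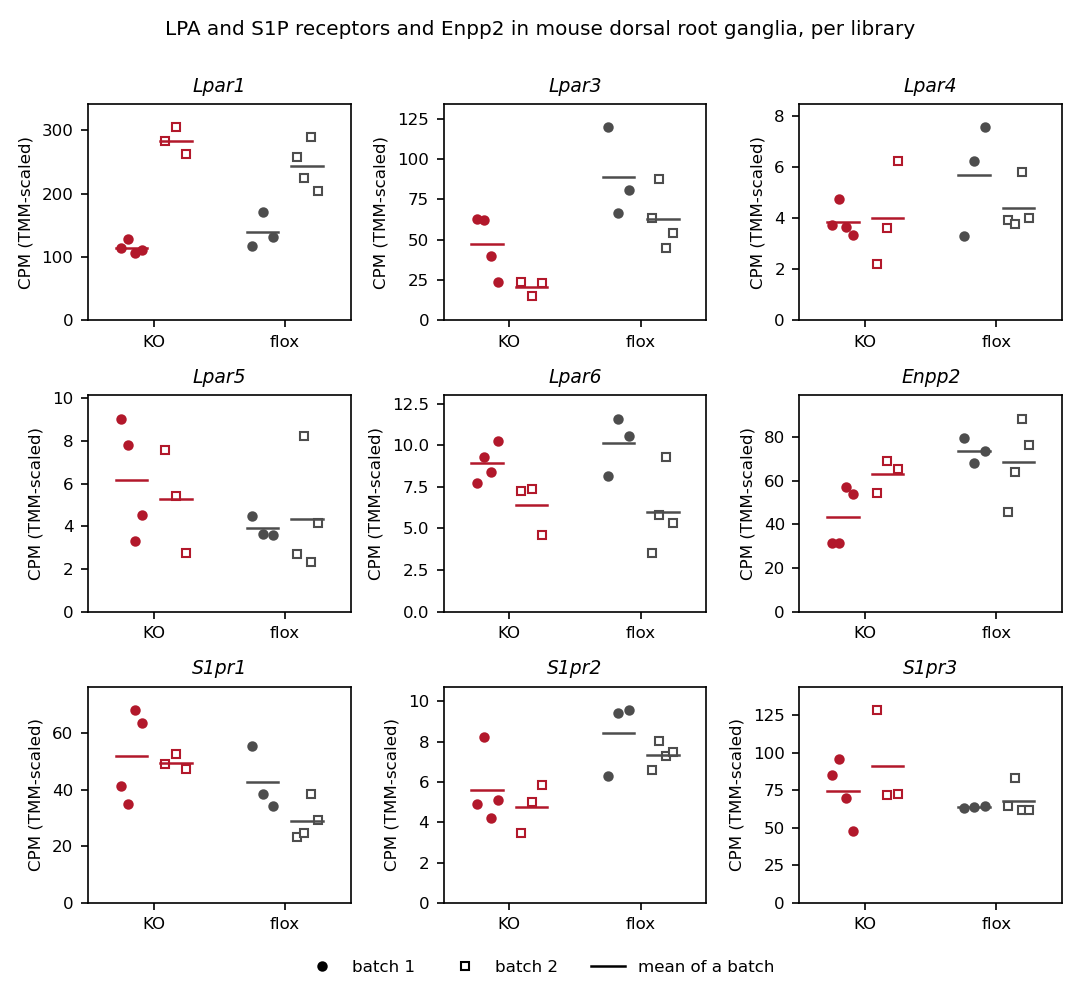
TMM-scaled CPM of each gene in every mouse library, KO left of flox, with filled circles for batch 1, open squares for batch 2 and a line for the mean of a batch. Lpar3 is lower in KO than in flox within each batch, and Lpar1 stands higher in batch 2 than in batch 1 in both genotypes.

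Lpar3, a receptor for LPA that couples to Gq and Gi (chromosome 3, 146220963 to 146286186, plus strand, GRCm38), showed the largest difference of the 9 genes. In batch 1 the KO libraries had 62.8, 61.9, 39.7 and 23.9 CPM, against 119, 66.8 and 81.0 CPM in flox libraries. In batch 2 the KO libraries had 23.6, 15.3 and 23.2 CPM, against 63.6, 87.8, 45.0 and 53.9 CPM in flox libraries. All KO values of a batch lay under all flox values of that batch, although the gap in batch 1, between 62.8 and 66.8 CPM, was narrow. Lpar3 fell by 1.26 ± 0.24 on the log2 scale (SE), which is 2.39-fold lower (edgeR adjusted p = 0.00289). The log2 fold change was -0.95 in batch 1 alone (adjusted p = 0.186, edgeR) and -1.59 in batch 2 alone (adjusted p = 0.00394, edgeR). It lay between -1.38 and -1.13 when each library was left out in turn and kept its call in all 14 of these fits. Without the batch term it was -1.05 and was no longer called (edgeR adjusted p = 0.0962).

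Lpar3 was then set against the other genes of its neuron class. NP1 neurons are the C-fibre neurons of the epidermis that carry the receptor Mrgprd. Of 9 other NP1 genes, 3 fell and none rose. Cd55, a complement regulator, averaged 245 ± 82.1 CPM in KO and 454 ± 51.1 CPM in flox DRG (SD, n = 7 each), with a log2 fold change of -0.92. Agtr1a, an angiotensin receptor, changed by -1.08 on the log2 scale. Mrgprd itself had a log2 fold change of -0.50 ± 0.22 and did not pass (edgeR adjusted p = 0.139). P2rx3 (-0.01), Scn11a (0.04), Grik1 (0.10), Gna14 (0.15) and Plxnc1 (0.20) had log2 fold changes near 0 and did not pass either. The genes of this list thus did not fall together. How far each is confined to NP1 neurons, and whether the share of NP1 neurons differed, was not tested. The summed level of the list was 738 to 1410 CPM in KO and 1049 to 1625 CPM in flox libraries.

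Within each library, the log2 level of Lpar3 minus the mean log2 level of those 9 genes was formed from log2(CPM + 1). In batch 1 it ran over -1.32 to -0.76 in KO and -0.22 to 0.07 in flox libraries, and in batch 2 over -1.89 to -1.31 in KO and -0.96 to -0.48 in flox libraries. The groups did not overlap within either batch. The difference averaged over batches was -0.90, with a two-sided exact permutation p of 0.000816, the smallest that permuting genotype within batches can give (adjusted p = 0.00245 over 3 such values). The ratio reuses the Lpar3 counts that had already given the call, and the list was chosen with earlier results known. Its p is therefore not separate support for the Lpar3 difference. In batch 1 alone the difference was -0.81 (exact permutation p = 0.0286, the smallest that 4 against 3 libraries allow, adjusted p = 0.0857), and in batch 2 alone it was -0.997 (exact permutation, adjusted p = 0.0286). Markers of other cell types also moved with genotype: 4 of 10 sensory neuron genes were called higher, with a summed level of 7019 to 10287 CPM in KO and 4996 to 7462 CPM in flox libraries. All 7 neutrophil genes were called higher, with sums of 559 to 5014 CPM in KO and 41.5 to 612 CPM in flox libraries, and 6 of 7 fibroblast genes were called lower. Of the other cell type lists, 6 of 7 genes of NP3 pruriceptors and 1 of 7 satellite glia genes, Cdh19, were called higher. None of 7 macrophage, 3 adipocyte, 5 erythroid, 5 skeletal muscle and 4 spinal cord genes was called by edgeR or DESeq2, and 2 macrophage genes had an unadjusted p under 0.05. Their part in the Lpar3 difference was not tested.

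**Figure D2:**
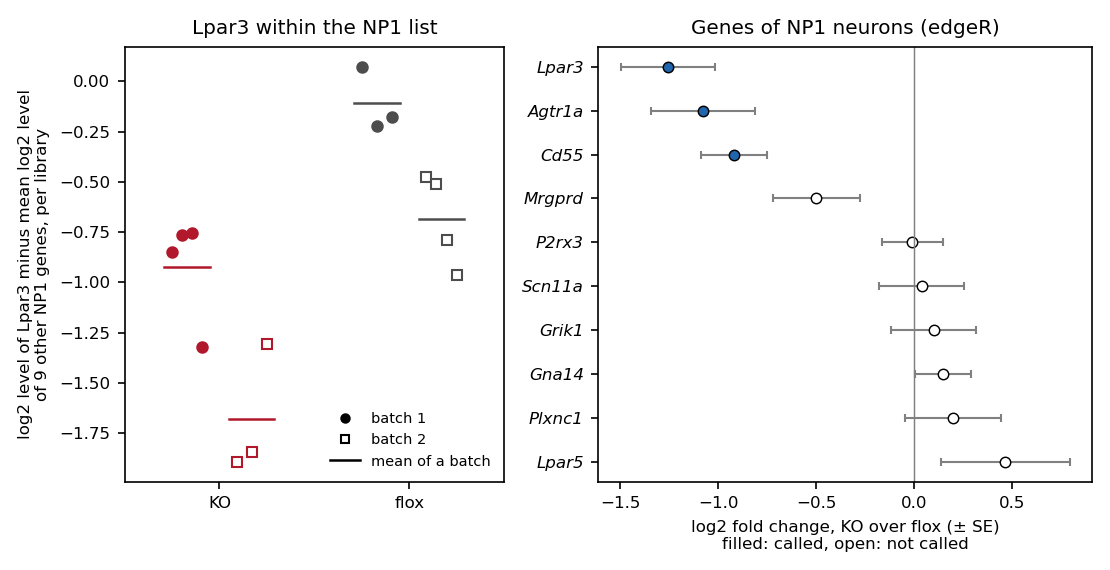
Left, the log2 level of Lpar3 minus the mean log2 level of 9 other NP1 genes in each mouse library, KO left of flox, by batch, with a line for the mean of a batch. Right, log2 fold changes of Lpar3, Lpar5 and 8 of the other NP1 genes, KO over flox, with SE, filled where called. Lpar3, Agtr1a and Cd55 are the called genes among those drawn.

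Lpar5, the other LPA receptor that marks NP1 neurons, did not follow Lpar3. In batch 1 it had 9.05, 7.82, 3.30 and 4.52 CPM in KO libraries, against 4.49, 3.65 and 3.61 CPM in flox libraries. In batch 2 it had 7.56, 5.44 and 2.76 CPM in KO libraries, against 2.68, 8.24, 2.32 and 4.14 CPM in flox libraries. The groups overlapped in both batches, and flox library 5 was above all other flox libraries. The log2 fold change was 0.47 ± 0.33 (SE, edgeR adjusted p = 0.357). The difference between the Lpar3 and Lpar5 changes was not tested.

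Lpar1, the gene of the 9 with the highest median TPM in every group and batch and a receptor that couples to Gi, Gq and G12/13, differed more between batches than between genotypes. Batch 1 held 115, 128, 106 and 110 CPM in KO and 117, 171 and 131 CPM in flox libraries. Batch 2 held 283, 304 and 262 CPM in KO and 258, 224, 290 and 204 CPM in flox libraries. All batch 2 libraries lay above all batch 1 libraries, and the genotypes overlapped within each batch. The log2 fold change was -0.03 ± 0.12 (SE, edgeR adjusted p = 0.878). It was -0.32 in batch 1 and 0.22 in batch 2, and the interaction of batch and genotype did not pass (edgeR adjusted p = 0.303). None of the 9 genes had a called interaction, where 1.03% of all genes did, and Lpar1 was the 1 of 9 with an unadjusted p under 0.05. DESeq2 called 0 of 9 as well, beside 3.09% of all genes with a p.

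Lpar1 is carried by Schwann cells in mice, and myelin genes were lower in KO DRG. All 8 myelin and Schwann genes had negative log2 fold changes and 5 were called lower, among them Prx (-1.18), which encodes periaxin of the myelin sheath, Mbp (-0.86), which encodes myelin basic protein, and Mag (-0.94), which encodes a myelin adhesion protein. The list summed to 3076 to 5429 CPM in KO and 5303 to 10287 CPM in flox libraries. Relative to these 8 genes within a library, Lpar1 was higher in KO by 0.77 on the log2 scale (two-sided exact permutation p = 0.0122, adjusted p = 0.0184). The groups separated in batch 2, where the value was 0.71 to 1.55 in KO and -0.49 to 0.18 in flox libraries, with no overlap (difference 1.23, exact permutation, adjusted p = 0.0286). In batch 1 it was -0.79 to 0.47 in KO and -0.60 to -0.18 in flox libraries, which overlapped (difference 0.31, exact permutation, adjusted p = 0.514). The ratio therefore rests on lower myelin genes beside a level of Lpar1 whose groups overlapped in CPM.

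Lpar4 and Lpar6, LPA receptors of a second branch that is related to purinergic receptors, were the lowest of the 9 genes per transcript length. Lpar4 (X chromosome) ran over 2.18 to 6.24 CPM in KO and 3.28 to 7.53 CPM in flox libraries, with a log2 fold change of -0.34 ± 0.26 (SE, edgeR adjusted p = 0.391). Lpar6, whose human counterpart is needed for hair growth, ran over 4.63 to 10.2 CPM in KO and 3.51 to 11.6 CPM in flox libraries, with a log2 fold change of -0.04 ± 0.21 (SE, edgeR adjusted p = 0.912). The genotypes overlapped for both genes. Lpar6 lies inside Rb1 on the opposite strand, and the labels do not say whether strand was kept, so its reads and those of Rb1 cannot be told apart where they share sequence.

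Enpp2, the LPA-making enzyme (chromosome 15, 54838901 to 54952892, minus strand), separated the groups in batch 1 but not in batch 2. The batch 1 values were 31.3, 31.6, 56.9 and 53.8 CPM in KO libraries, against 79.4, 68.0 and 73.4 CPM in flox libraries, with no overlap. In batch 2 it had 54.2, 68.9 and 65.2 CPM in KO libraries, against 45.5, 63.7, 88.3 and 76.2 CPM in flox libraries, and the groups overlapped. The log2 fold change was -0.44 ± 0.18 (SE) and did not pass (edgeR adjusted p = 0.109). The values by batch were -0.79 and -0.12, and the test of their difference did not pass (edgeR adjusted p = 0.428). Spinal cord and oligodendrocyte genes summed to 172 to 618 CPM in KO and 498 to 700 CPM in flox libraries of batch 1. In batch 2 they summed to 93.5 to 157 CPM in KO and 91.9 to 254 CPM in flox libraries. Their part in the Enpp2 values was not tested.

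S1pr1, the Gi-coupled S1P receptor of endothelium and lymphocytes, had the largest positive log2 fold change of the 9 genes and missed the threshold narrowly. In batch 1 it had 41.5, 35.1, 68.3 and 63.6 CPM in KO libraries, against 55.6, 38.4 and 34.1 CPM in flox libraries, and the groups overlapped. In batch 2 it had 49.1, 52.7 and 47.3 CPM in KO libraries, against 23.5, 24.6, 38.5 and 29.2 CPM in flox libraries, with no overlap. The log2 fold change was 0.53 ± 0.18 (SE, edgeR adjusted p = 0.0519). It was 0.26 in batch 1 alone and 0.78 in batch 2 alone, and batch 2 alone passed (edgeR adjusted p = 0.0223). Batch 2 alone called Lpar3 and S1pr1 of the 9, beside 13.2% of all genes, and batch 1 alone called none of the 9 in edgeR, with 2 at an unadjusted p under 0.05, beside 1.8% of all genes. Leaving out flox library 1, the highest flox library, gave 0.67 and a call (edgeR adjusted p = 0.0148), as did leaving out KO library 1 or 2.

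Endothelial markers were set beside S1pr1. None of 8 endothelial genes was called by edgeR, though 3 had an unadjusted p under 0.05 and DESeq2 called 1 of the 8 higher. Their sum was 133 to 277 CPM in KO and 133 to 253 CPM in flox libraries. Tek, an angiopoietin receptor, had a log2 fold change of 0.52 (edgeR adjusted p = 0.0732), and Flt1, a VEGF receptor, one of -0.50 (edgeR adjusted p = 0.0784). S1pr1 relative to the 8 genes within a library differed by 0.47 on the log2 scale and did not pass (two-sided exact permutation p = 0.0620, adjusted p = 0.0620). In batch 2 this value ran over 1.11 to 1.37 in KO and 0.52 to 0.81 in flox libraries. The batch 1 values ran over 0.76 to 1.63 in KO and 0.26 to 1.67 in flox libraries, where flox library 1 held the highest value of all. Satellite glia genes summed to 4380 to 5795 CPM in KO and 3692 to 3877 CPM in flox libraries of batch 2, with no overlap. In batch 1 they summed to 3114 to 3999 CPM in KO and 2793 to 3339 CPM in flox libraries, which overlapped. Their part in the S1pr1 values was not tested.

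S1pr2, an S1P receptor that couples to G12/13 (chromosome 9, 20962361 to 20976781, minus strand), was the second gene called. In batch 1 it had 4.90, 8.21, 4.23 and 5.08 CPM in KO libraries, against 6.31, 9.43 and 9.58 CPM in flox libraries. In batch 2 it had 3.48, 4.99 and 5.86 CPM in KO libraries, against 6.57, 8.03, 7.29 and 7.47 CPM in flox libraries. The groups did not overlap in batch 2, while KO library 2 lay above flox library 1 in batch 1. S1pr2 fell by 0.60 ± 0.19 on the log2 scale (SE), which is 1.52-fold lower (edgeR adjusted p = 0.0432). The size was alike in both batches, -0.63 and -0.62, but neither passed alone. The call was near the threshold and was lost in 11 of the 14 fits that left out a library, with adjusted p between 0.0185 and 0.104 (edgeR).

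S1pr3, the S1P receptor of sensory neurons, did not pass. It had 84.9, 95.7, 69.7 and 47.9 CPM in KO libraries of batch 1, against 63.4, 63.8 and 64.7 CPM in flox libraries. In batch 2 it had 129, 71.8 and 72.1 CPM in KO libraries, against 64.4, 83.3, 62.1 and 61.9 CPM in flox libraries. The flox libraries were tightly placed apart from flox library 5, at 61.9 to 64.7 CPM, while 6 of 7 KO libraries lay above that range and KO library 4 lay below it. The log2 fold change was 0.32 ± 0.16 (SE, edgeR adjusted p = 0.190). A lncRNA on the opposite strand, Gm32834, overlaps S1pr3, and the 5′ part of Enpp2 overlaps the lncRNA Gm26684, so these 2 genes may share reads with them.

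**Figure D3:**
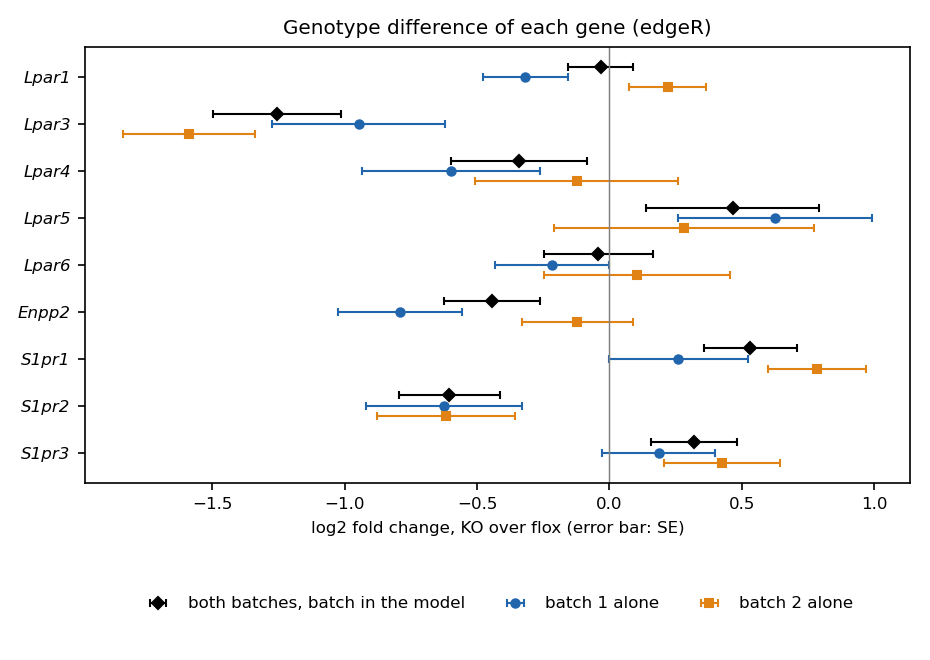
Log2 fold change of each gene, KO over flox, with SE, from both batches together (diamonds), batch 1 alone (circles) and batch 2 alone (squares). Lpar3 and S1pr2 lie below 0 in all 3 fits, whereas Lpar1 is at -0.32 in batch 1 and 0.22 in batch 2.

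Levels of the 9 genes were ordered by TPM within a batch, since the deposited TPM columns summed, in units of 1000, to 601 to 834 in batch 1 and 954 to 979 in batch 2. In KO libraries of batch 2 the median TPM was 105 for Lpar1, 23.1 for Enpp2, 19.6 for S1pr1, 17.8 for S1pr3 and 10.3 for Lpar3. In flox libraries of batch 2 it was 93.3 for Lpar1, 30.1 for Enpp2, 29.6 for Lpar3, 17.6 for S1pr3 and 11.9 for S1pr1. Lpar3 thus stood at rank 5 in KO and rank 3 in flox libraries of batch 2. Among these 5, the neighbours with overlapping ranges were S1pr1 and S1pr3 in KO libraries, and Enpp2 with Lpar3 and Lpar3 with S1pr3 in flox libraries. The remaining 4 genes were under 9 TPM in each library of batch 2: Lpar5 had a median of 4.70 TPM in KO and 3.32 TPM in flox, S1pr2 of 2.01 TPM in KO and 3.41 TPM in flox, Lpar6 of 1.504 TPM in KO and 1.36 TPM in flox, and Lpar4 of 0.949 TPM in KO and 1.21 TPM in flox libraries. Lpar3 and Lpar5, S1pr2 and Lpar6, and Lpar6 and Lpar4 overlapped in KO libraries, as did S1pr2 and Lpar5, and Lpar6 and Lpar4, in flox libraries. In batch 1, Lpar1 was again highest, with a median of 42.0 TPM in KO and 45.3 TPM in flox libraries, and Lpar3 followed with 25.4 TPM in KO and 37.0 TPM in flox libraries. Lpar1 and Lpar3 overlapped in the flox libraries of batch 1, where flox library 1 held 56.8 TPM of Lpar3 and 41.3 TPM of Lpar1.

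**Figure D4:**
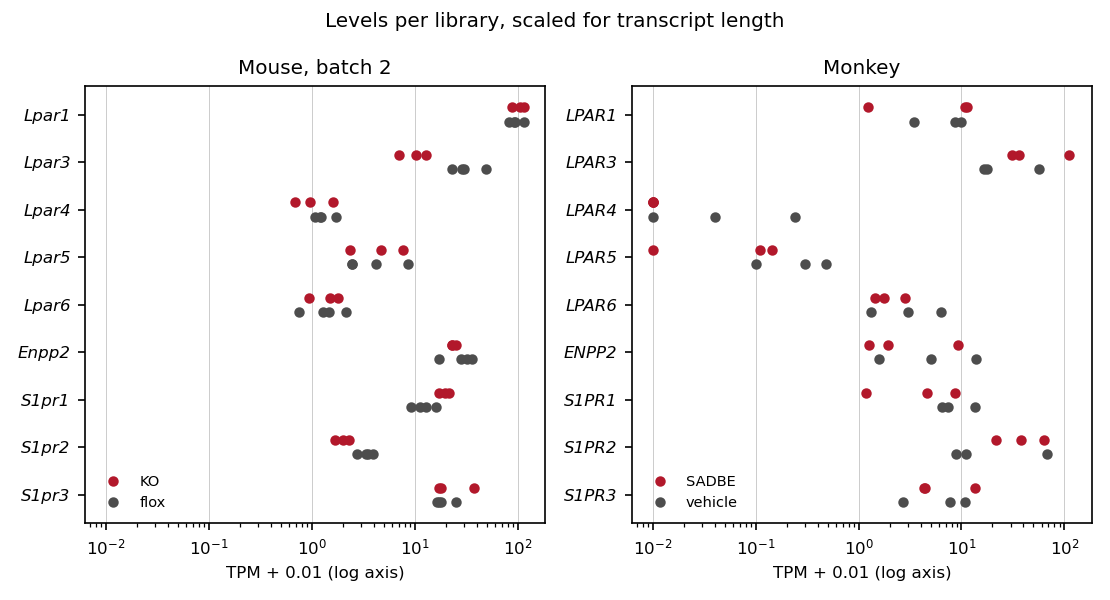
TPM plus 0.01 of each gene on a log axis, 1 point per library. Left, mouse batch 2 with KO above flox. Right, monkey with SADBE above vehicle. Lpar1 leads in mice, whereas LPAR3 and S1PR2 lead in monkeys.

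The 9 genes did not vary as a block. Over the 14 mouse libraries, after the batch mean was subtracted from log2(CPM + 1), Lpar3 and S1pr1 had a Pearson correlation of -0.77, S1pr1 and S1pr2 of -0.76, Lpar3 and S1pr2 of 0.63, and Lpar4 and S1pr2 of 0.74. These values describe libraries that share genotype and depth, and part of each comes from the genotype difference itself. By the same measure, among 12993 tested genes with an official symbol and a mean of at least 1 TPM, the genes most like Lpar3 were Ptgdr (r = 0.97), a prostaglandin D2 receptor, Prkcq (r = 0.97), a protein kinase C, and Chrna6 (r = 0.96), a nicotinic receptor subunit. All 3 were called lower in KO, with log2 fold changes of -0.79, -1.52 and -1.42. The genotype difference was left in this measure, so genes most like a called gene tend to share its direction. The genes most like S1pr2 were Pawr and Mboat2 (r = 0.95 each) and P2rx7 (r = 0.91), with log2 fold changes of -0.96, -0.65 and -0.53. Those most like S1pr1 were Bcl2l1 (r = 0.92), Atp1b2 (r = 0.90) and Supt16 (r = 0.90), and those most like Enpp2 were Car14 (r = 0.92), Pkp4 (r = 0.90) and Papss2 (r = 0.89). For Lpar1 they were Rchy1, Tceanc and Nrgn (r = 0.84 to 0.87), for Lpar4 Slc35b2, Heyl and Rhoa (r = 0.85 to 0.88), and for Lpar5 Jhy, Nedd4l and Ngfr (r = 0.89 to 0.93). For Lpar6 they were Helq, Fdxacb1 and Sf3a3 (r = 0.84 to 0.89), and for S1pr3 Hsd17b7, Nup107 and Cyb5b (r = 0.93 to 0.94).

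The remaining receptors of both lipids were scarce in mouse DRG. S1pr4 and S1pr5 were the 2 of 5 that could be tested, and neither passed in edgeR or DESeq2, with 1 at an unadjusted p under 0.05. S1pr5, a receptor of oligodendrocytes and natural killer cells, averaged 1.02 ± 1.02 CPM in KO and 2.50 ± 2.73 CPM in flox libraries (SD, n = 7 each), with a log2 fold change of -1.39 ± 0.55 (SE, edgeR adjusted p = 0.0949). The part of spinal cord and oligodendrocyte genes in this value was not tested. S1pr4 had a log2 fold change of 0.50 ± 0.40 (SE, edgeR adjusted p = 0.422). Lpar2 and P2ry10 had 80 and 139 counts over all 14 libraries, and neither was tested.

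Genes that make and break down LPA moved in both directions. Of 12 tested, 3 were called higher and 1 lower, with a median log2 fold change of -0.13. Liph, a phospholipase that makes LPA, rose by 0.87 ± 0.26 on the log2 scale (SE, edgeR adjusted p = 0.0352). Gdpd1, a lysophospholipase D that acts inside cells, rose by 0.44 ± 0.11 (SE, edgeR adjusted p = 0.0131), and Agpat5, an acyltransferase of lysophospholipids, by 0.41 ± 0.13 (SE, edgeR adjusted p = 0.0364). Plpp3, a phosphatase that breaks down extracellular LPA and S1P, averaged 81.9 ± 35.9 CPM in KO and 118 ± 54.4 CPM in flox libraries (SD, n = 7 each) and fell by 0.69 ± 0.15 (SE, edgeR adjusted p = 0.00807). Of 7 tested genes for making, exporting, carrying and breaking down S1P, none was called by edgeR or DESeq2 and 1 had an unadjusted p under 0.05. This was Sgpl1, the S1P lyase, with a log2 fold change of 0.23 ± 0.10 (SE, edgeR adjusted p = 0.142). Sphk2, a sphingosine kinase, had one of -0.32 ± 0.17 (SE, edgeR adjusted p = 0.218).

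Of 9 tested target genes of YAP and of serum response factor, which receptors of both lipids can switch on, all 9 had negative log2 fold changes, with a median of -0.74, and 4 were called lower. Ajuba fell by 1.57 (edgeR adjusted p = 0.000670), Myl9 by 1.17 (0.00169), Tagln by 1.16 (0.00762) and Amotl2 by 0.74 (0.0361) on the log2 scale. Myl9 and Tagln encode contractile proteins of smooth muscle, and the mural cell genes Cspg4 (-1.21) and Acta2 (-1.16) fell alongside them, 2 of 7 mural genes in all. Batch 1 sums of the mural list were 175 to 330 CPM (KO) and 281 to 334 CPM (flox), with medians of 229 and 332 CPM. Batch 2 sums were 408 to 468 CPM (KO) and 320 to 425 CPM (flox), with medians of 443 and 412 CPM. The KO median was thus the lower one in batch 1 and the higher one in batch 2, and the ranges overlapped both times. The fibroblast list, with 6 of 7 genes called lower, had a median log2 fold change of -1.58. The part of the mural and fibroblast lists in these 4 calls was not tested.

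In monkeys no gene of the 17988 tested was called between SADBE and vehicle DRG, 0% of the total, and none of the 7 tested LPA and S1P genes. LPAR4 and LPAR5 did not pass the low-count filter of edgeR. At an unadjusted edgeR p under 0.05 there were 550 genes over the whole table and 0 of the 7, and DESeq2 called 28 genes over the whole table and none of the LPA and S1P genes. The groups overlapped for all 7, where 9.18% of tested genes had groups that did not overlap. Their median log2 fold change was 0.01, with 4 above and 3 below 0, beside a median of -0.01 over all genes. A count of 0 with 3 libraries against 3 says little about sizes, since the SE of the 7 log2 fold changes lay between 0.58 and 0.93.

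**Figure D5:**
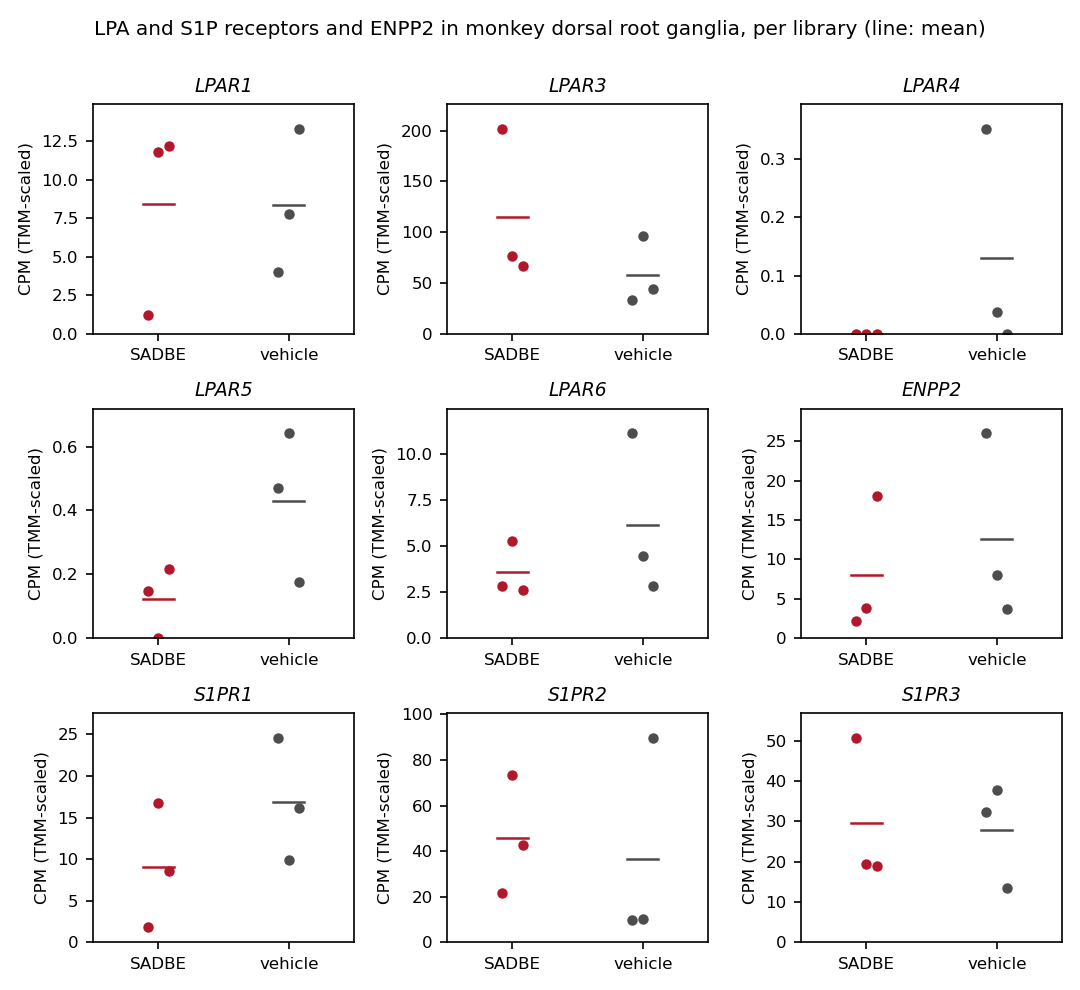
TMM-scaled CPM of each gene in every monkey library, SADBE left of vehicle, with a line for the group mean. The groups overlap for the 7 genes tested, and SADBE library 1 holds the highest LPAR3 and S1PR3 and the lowest LPAR1, ENPP2 and S1PR1 values.

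LPAR3 had 202, 76.8 and 66.1 CPM in SADBE libraries, against 33.1, 96.5 and 44.1 CPM in vehicle libraries. Its log2 fold change was 0.99 ± 0.61 (SE, edgeR adjusted p = 0.999), above 0 where mouse Lpar3 in the ADAM17 comparison was below 0. It was 0.30 without SADBE library 1, the highest of the 6. S1PR1 had 1.86, 16.7 and 8.58 CPM in SADBE libraries, against 24.6, 9.89 and 16.2 CPM in vehicle libraries, with a log2 fold change of -0.91 ± 0.74 (SE, edgeR adjusted p = 0.999), or -0.42 without SADBE library 1. S1PR2 had 21.8, 73.5 and 42.5 CPM in SADBE libraries, against 9.87, 10.1 and 89.8 CPM in vehicle libraries. Vehicle library 3 stood far above the other vehicle libraries for S1PR2, and the log2 fold change of 0.33 ± 0.89 (SE) became 2.17 without it.

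LPAR1 had 1.22, 11.8 and 12.2 CPM in SADBE libraries, against 4.00, 7.74 and 13.3 CPM in vehicle libraries (log2 fold change 0.01 ± 0.82, SE). ENPP2 had 2.15, 3.82 and 18.0 CPM in SADBE libraries, against 26.0, 7.97 and 3.67 CPM in vehicle libraries (log2 fold change -0.65 ± 0.93, SE). The spread within a group was several-fold for both genes. LPAR6 had 2.84, 5.28 and 2.61 CPM in SADBE libraries, against 11.1, 4.45 and 2.80 CPM in vehicle libraries (log2 fold change -0.79 ± 0.66, SE). S1PR3 had 50.7, 19.4 and 18.9 CPM in SADBE libraries, against 32.3, 37.9 and 13.6 CPM in vehicle libraries (log2 fold change 0.09 ± 0.58, SE). LPAR5 had 3, 0 and 4 counts in SADBE libraries, against 16, 17 and 2 counts in vehicle libraries. LPAR4 had 0 counts in all 3 SADBE libraries, against 12, 1 and 0 counts in vehicle libraries. For a limit of 3 counts per library, the SADBE values allow up to 0.134, 0.333 and 0.171 CPM, here without TMM scaling. These limits cover counting error only.

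The libraries of a monkey group also differed in cell type markers. Sensory neuron genes summed to 5840, 3398 and 3491 CPM in SADBE libraries, against 1470, 6381 and 3267 CPM in vehicle libraries. Fibroblast genes summed to 679, 2594 and 3095 CPM in SADBE libraries, against 4624, 1358 and 1225.4 CPM in vehicle libraries. Neutrophil genes summed to 1235 CPM in vehicle library 1, against 11.5 to 226 CPM in SADBE libraries and 20.8 and 142 CPM in the other vehicle libraries. SADBE library 1 had the highest neuron and lowest fibroblast sum of its group, and vehicle library 1 had the lowest neuron and highest fibroblast sum of its own. Their part in the values above was not tested.

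By TPM the monkey order differed from the mouse order. The monkey transcriptome is not given, and the processing notes name a mouse build for the monkeys too, so the orders of the 2 species may not be comparable. In SADBE libraries the median was 38.0 TPM for S1PR2, 35.9 for LPAR3 and 10.8 for LPAR1, and in vehicle libraries it was 10.9 for S1PR2, 17.8 for LPAR3 and 8.72 for LPAR1. S1PR2 and LPAR3 overlapped in both groups. S1PR1 had 4.64 TPM in SADBE and 7.38 TPM in vehicle libraries, S1PR3 had 4.42 TPM in SADBE and 7.78 TPM in vehicle libraries, and ENPP2 had 1.94 TPM in SADBE and 5.00 TPM in vehicle libraries. LPAR6 had 1.76 TPM in SADBE and 3.01 TPM in vehicle libraries, and LPAR5 had 0.0998 TPM in SADBE and 0.292 TPM in vehicle libraries. LPAR4 was at 0 TPM in SADBE and 0.0298 TPM in vehicle libraries. The ranges of SADBE and vehicle libraries overlapped for each of these genes.

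None of the pathway genes was called in monkeys by edgeR or DESeq2, and 1 had an unadjusted p under 0.05 in each. In edgeR it was VCL, which encodes vinculin, a serum response factor target at cell adhesions. It averaged 29.0 ± 1.16 CPM in SADBE and 74.2 ± 14.9 CPM in vehicle libraries (SD, n = 3 each), with no overlap between the groups. On the log2 scale the VCL value was -1.36 ± 0.39 (SE, edgeR adjusted p = 0.999). The next in its list was SRF (log2 fold change -1.22), the factor itself. In 3 other lists the 2 lowest p belonged to PLPP3 (-1.01) and PLA1A (-1.17), a phospholipase, to SGPL1 (0.94) and SPHK2 (0.49), and to the receptors LPAR2 (0.23) and S1PR5 (0.05). All of these had an adjusted p of 0.999 in edgeR, and all but VCL had overlapping groups.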

How the data were processed

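Per the labels, total RNA was purified from fresh frozen DRG and sequenced at a core facility. For both species the authors deposited a table of estimated counts and a table of TPM, each by gene. Per the submitters' processing notes, kallisto was used with the build GRCm38, a mouse build that is also named for the monkeys. The kallisto version, the monkey transcriptome and strandedness are not given in the sources used here. This program splits reads between similar transcripts, so overlapping genes are uncertain.

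Estimated counts were rounded. A mouse row that names no gene, 0.0785% to 0.186% of counts, was left out. Genes were tested in R 4.3.3 with edgeR 4.0.16, by quasi-likelihood (filterByExpr with a minimum count of 10 and total of 15, TMM, robust, batch as a term in mice), with Benjamini-Hochberg adjustment over all tested genes and calls under 0.05. SE was derived from the F statistic. Alternatives used DESeq2 1.42.0 and limma 3.58.1. Ratios within a library used log2(CPM + 1) and an exact permutation of genotype within batch. Scripts were tested on simulated data. No 2 libraries of a group were copies: chi-square per gene was at least 21.0. Some pairs were closer than others. SADBE libraries 2 and 3 had 26.5, where the other pairs within a monkey group had 269 to 507. KO libraries 6 and 7 had 30.1, against 139 and 152 with KO library 5, and KO libraries 1 to 3 had 21.0 to 32.9. The labels do not say whether close libraries share an animal.

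The 9 genes and all lists were chosen with earlier results of these data known. Named genes were the 9 genes, every called gene of a pathway list (or the 2 lowest p), up to 3 called genes of a cell type list that is described, and the 3 genes most correlated with each of the 9. Coordinates are from GENCODE M21, and promoters from RefSeq (GRCm38.p6). Some genes of the lists are not reported here, though they stay in the tests and list counts.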

Additional observations from a re-analysis of the deposited data

Results flagged for a closer look

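Flox library 5 lay apart from the other flox libraries for 2 genes. It had 83.3 CPM of S1pr3, where the next of the 7 flox libraries had 64.7 CPM and the next in batch 2 had 64.4 CPM, and it stood out both among all 7 and among the 4 of batch 2. It had 8.24 CPM of Lpar5, where the next had 4.49 CPM. Flox library 6 had 5.80 CPM of Lpar4, where the next flox library of batch 2 had 3.98 CPM. These are 4 of 36 groups of 4 to 10 values tested for a value far from the others, and chance alone picks out about 1 in 20 groups.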

How the results depend on the processing

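The count of called genes in mice, 2 of 9 beside 15.5% of all genes, was 1 without a low-count filter (9.2% of all genes), 1 on log2(TPM + 1) (11.9%), 1 on log2(TPM + 0.1) (11.8%), 1 without KO libraries 6 and 7 (11%), 0 without the batch term (3.6%) and 0 in batch 1 alone (1.8%). It was 1 to 3 with a library left out, where 10% (without KO library 5) to 19.7% (without KO library 4) of all genes were called. It was 3 with RLE scaling (15.7%) and DESeq2 (15% of genes with a p), where S1pr1 was added. Over all genes 2423 were called, against 1587 without KO library 5, 564 without the batch term, 273 in batch 1 alone and, of more genes tested, 3486 with DESeq2. Lpar3 was lost only without the batch term and in batch 1, S1pr2 in 8 of 12 alternatives beside the fits with a library left out. Libraries with the same replicate number did not steadily deviate together (correlations -0.13 to 0.15 in mice, -0.31 to 0.23 in monkeys). With 3 libraries in a monkey group, this cannot tell whether animals were shared. The replicate block gave 2 calls, Lpar3 and Enpp2 (13.4% of all genes), and 0 in monkeys.

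The Lpar3 ratio was -0.81 in batch 1, where its p, 0.0286, was the smallest possible and missed the threshold through the adjustment, and -0.998 to -0.84 with a library left out. The Lpar1 ratio was 0.31 (batch 1, no longer called) and 0.66 to 0.89. The S1pr1 ratio was 0.60 in batch 2 (called) and 0.34 to 0.69.

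Signs turned in some fits for values near 0 and also for larger ones. The larger ones in the main fit were ENPP2 (-0.65), S1PR2 (0.33) and the interactions of Lpar4 (0.44) and Lpar5 (-0.38). Lpar6 was 0.00030 and 0.0096 on TPM, 0.013 without batch and 0.10 in batch 2. Lpar1 was 0.0030 with the replicate block and 0.22 in batch 2. LPAR1 was -0.0049 with DESeq2, -0.42 with limma-voom, -0.18 and -0.30 on TPM with 1 and 0.1 added, -0.37 with the replicate block and -0.33 with SADBE 2 and 3 summed. With a library left out, ranges were -0.10 to 0.069 for Lpar1, -0.14 to 0.081 for Lpar6, -0.38 to 0.53 for LPAR1, -2.11 to 0.45 for ENPP2, -0.21 to 2.17 for S1PR2 and -0.55 to 0.37 for S1PR3. For the interaction they were -0.033 to 0.73 for Lpar4, -0.74 to 0.13 for Lpar5, -0.21 to 0.21 for S1pr2 and -0.14 to 0.34 for S1pr3. The cause was not tested. In monkeys 0 were called in all 15 alternatives. Depth was lowest in SADBE 2.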
